A study of Mus musculus with 24 samples.

Results

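The 34 genes described here encode the enzymes and transporters of glycolysis (22 genes) and components of the cellular response to low oxygen (12 genes). They were measured by RNA sequencing of mouse bone marrow-derived macrophages labelled OGT knockout (KO) or wild type (WT). OGT is the enzyme that attaches the sugar O-GlcNAc to proteins inside the cell. The genes were taken by symbol from a list that was chosen with earlier results of these data known. All 34 were found among the 24421 gene symbols of the count files. Glycolysis splits glucose into pyruvate, and macrophages are known to depend on it during inflammatory activation by LPS. When oxygen is scarce, prolyl hydroxylases of the EGLN family stop marking the transcription factor subunit HIF1A for destruction, and HIF1A with its partner ARNT then raises the genes of glucose uptake, glycolysis, lactate export, blood vessel growth and mitochondrial turnover. LPS is also known to stabilise HIF1A in macrophages at normal oxygen. These regulatory steps act largely on HIF1A protein, which RNA counts do not measure.

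Macrophages of 2 genotypes, OGT KO and WT, were each analysed in 3 states with 4 libraries per group. The groups were KO and WT cells given LPS (100 ng/ml for 12 hours), KO and WT cells given IL-4 (10 ng/ml for 12 hours), and KO and WT cells left unstimulated (M0). All mice were of the C57BL/6J strain and 12 weeks old. The sources used here do not give the deleted part of Ogt, the way the deletion was made or whether the libraries of a group came from separate animals, so p-values measure only the spread between these libraries, which may be technical. Libraries carry the numbers of their labels, 5 to 8 in KO and 1 to 4 in WT, and per-library values are given in that order.

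Values are CPM, counts scaled to a common effective library size, and differences are log2 fold changes with their standard errors (SE) from 1 edgeR quasi-likelihood fit. A gene is called where its p, adjusted by the Benjamini-Hochberg method over all 14693 genes tested, is under 0.05. Of the 34 genes, 33 passed the filter on low counts. Eno1 did not, with at most 0.221 CPM in any library, and its sequence is 99.48% identical to that of Eno1b over 1736 bases. After LPS, Ogt itself averaged 40.6 ± 8.91 CPM in the KO libraries and 59.2 ± 5.93 CPM in the WT libraries (SD, n = 4 each), a log2 fold change of -0.63 ± 0.072 (SE, adjusted p = 4.22e-07), and was lower in KO without overlap in all 3 states (-0.71 with IL-4, 2.82e-09; -0.49 in M0, 1.01e-06).

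The total over genes was between 63429271 and 94942464 counts for 21 libraries, and between 172771 and 209368 for KO LPS library 7 and WT LPS libraries 1 and 2. In these 3 shallow libraries 1 count is worth over 5 CPM, and a count of 0 allows 15.5 to 17.9 CPM, against 0.0303 to 0.055 CPM in the deep ones (3 counts, counting error only). The KO libraries numbered 5 and 6 stood apart from those numbered 7 and 8: in M0 both of one pair lay above both of the other in 22 of 33 members (66.7%) in KO, against 59.7% of all genes tested, and in 7 of 33 (21.2%) in WT, against 25.3%. Calls that end or appear without either KO pair are given with each comparison. The sum of 8 macrophage markers was 8671 to 10652 CPM in KO and 15426 to 15960 CPM in WT after LPS, 7300 to 9034 CPM in KO and 11761 to 13368 CPM in WT in M0, and 4947 to 5210 CPM in KO and 5547 to 6175 CPM in WT with IL-4. Lyz2 carried most of the difference after LPS (3700 CPM on average in KO and 8314 CPM in WT). It was 1 of 5 macrophage markers called lower in KO after LPS. The others were Itgam (-0.64, adjusted p = 7.32e-05), Csf1r (-0.42, 0.0129), Adgre1 (-0.37, 0.00343) and Cd14 (-0.35, 0.00114). The 2 called higher were Cd68 (0.41, 0.00457) and Mertk (0.65, 9.96e-05). In M0 Lyz2 averaged 5086 CPM in KO and 9307 CPM in WT, and 4 macrophage markers were called lower and 0 higher. With IL-4 Lyz2 averaged 2353 CPM in KO and 3231 CPM in WT. There Lyz2 was the 1 macrophage marker called lower (-0.46, 2.86e-05), and Fcgr1 was the 1 called higher (0.38, 0.00409). The sum of 8 stromal markers, almost all of it from the collagen genes Col1a1, Col1a2 and Col3a1, was high as well, at 15590 to 17774 CPM in KO and 10733 to 13668 CPM in WT after LPS. In M0 the stromal sum was 13823 to 18619 CPM in KO and 9669 to 11316 CPM in WT, and with IL-4 it was 10410 to 13761 CPM in KO and 7076 to 7575 CPM in WT. Of the other stromal markers, Pdgfrb averaged 72.9 to 201 CPM per group, Pdgfra 39.9 to 97.6 CPM and Dcn 1.29 to 16.6 CPM, and Lum and Thy1 at most 2.15 CPM. Endothelial markers summed to 85.4 to 126 CPM in KO and 20.6 to 48.9 CPM in WT after LPS, while markers of neutrophils, T and NK cells and B cells reached at most 52.6, 15.5 and 5.98 CPM in any library and the globin genes were at 0 in every group. The part of these markers in the differences below was not tested, and fewer cells of a type cannot be told apart from less RNA per cell.

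The promoters of the members with the largest called differences between KO and WT after LPS, 4 higher and 2 lower, come first, because the hypoxia response element, to which HIF binds, has the core letters ACGTG or GCGTG. The windows run from 250 bases before to 50 bases after the annotated start (RefSeq, GRCm38.p6), 5′ to 3′ on the gene's strand, with either core or its reverse complement (CACGT or CACGC) in capitals. Ndrg1 is not shown. Egln3 lies on the minus strand at chr12:54203825-54204124, Slc16a1 on the plus strand at chr3:104638414-104638713 and Adm on the plus strand at chr7:110627407-110627706. These 3 were higher in KO.
Egln3: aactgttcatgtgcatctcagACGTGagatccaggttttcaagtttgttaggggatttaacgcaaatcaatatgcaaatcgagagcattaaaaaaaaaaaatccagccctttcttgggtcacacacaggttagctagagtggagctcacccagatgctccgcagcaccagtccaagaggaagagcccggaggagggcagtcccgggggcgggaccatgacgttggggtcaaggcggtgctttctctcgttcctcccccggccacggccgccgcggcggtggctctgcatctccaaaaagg
Slc16a1: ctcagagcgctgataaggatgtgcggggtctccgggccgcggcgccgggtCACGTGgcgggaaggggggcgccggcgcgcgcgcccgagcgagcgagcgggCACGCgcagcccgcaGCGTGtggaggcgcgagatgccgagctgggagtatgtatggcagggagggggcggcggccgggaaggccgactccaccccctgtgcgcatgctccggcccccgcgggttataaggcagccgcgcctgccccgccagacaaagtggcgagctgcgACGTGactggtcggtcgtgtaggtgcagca
Adm: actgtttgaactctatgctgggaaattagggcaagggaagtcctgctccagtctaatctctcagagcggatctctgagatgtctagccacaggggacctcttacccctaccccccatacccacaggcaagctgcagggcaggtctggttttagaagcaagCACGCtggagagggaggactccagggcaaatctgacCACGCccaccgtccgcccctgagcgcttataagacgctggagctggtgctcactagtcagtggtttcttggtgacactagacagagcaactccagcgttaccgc
Aldoc (first of 2 windows, plus strand, chr11:78322823-78323122) and Gpi1 (minus strand, chr7:34230287-34230586) were lower in KO.
Aldoc: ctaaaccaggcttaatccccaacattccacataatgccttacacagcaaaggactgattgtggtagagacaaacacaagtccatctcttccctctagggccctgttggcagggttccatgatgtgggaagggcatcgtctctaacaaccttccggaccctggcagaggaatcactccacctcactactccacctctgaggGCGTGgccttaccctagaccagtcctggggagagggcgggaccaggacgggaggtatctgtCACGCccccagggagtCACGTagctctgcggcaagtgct
Gpi1: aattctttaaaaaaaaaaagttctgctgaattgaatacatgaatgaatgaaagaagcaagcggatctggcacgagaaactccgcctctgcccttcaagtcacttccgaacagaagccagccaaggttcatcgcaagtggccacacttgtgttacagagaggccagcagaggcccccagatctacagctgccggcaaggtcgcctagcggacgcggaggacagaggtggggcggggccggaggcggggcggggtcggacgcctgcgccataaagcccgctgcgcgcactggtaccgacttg

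The Egln3 window held 1 ACGTG, the Adm window 2 GCGTG, the Slc16a1 window 3 ACGTG and 2 GCGTG, and the Aldoc window 1 ACGTG and 2 GCGTG, counted on both strands. A CACGTG, as in the Slc16a1 window, reads as ACGTG on each strand and counts 2 times. Neither core occurred in the Gpi1 window, which says only that these letters are not there. Of the 32 tested members with a window, 25 (78.1%) held ACGTG in at least 1 window, against 28.3% of the 11554 tested genes with a window. GCGTG occurred in 21 members (65.6%), against 53.7% of those genes. Both cores contain a CG pair, and the median number of CG pairs in the richest window was 24 in the members and 21 in the tested genes. More windows give more places for a match. Of the 33 listed members with a window, 10 had more than 1, and the number of windows was not matched. The members were listed as genes of glycolysis and of the hypoxia response, so their share of these cores is not an independent result. A letter match is a description and not a binding site.

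Per kilobase of exon, the enzymes of the middle and end of glycolysis were the most abundant members. Averaged over the 6 groups, Pkm (pyruvate kinase) stood at 586 CPM per kb and Gapdh at 577. Ldha, which makes lactate from pyruvate, came next at 507 CPM per kb, then Pgk1 (465), Pgam1 (460) and Aldoa (453). Tpi1 followed at 277 CPM per kb and the isomerase gene Gpi1 at 104. At the low end stood Pfkm (6.41 CPM per kb), Egln3 (5.08), Ndrg1 (4.20), Ankrd37 (2.99) and the aldolase gene Aldoc (2.08). The order mixes groups that differ, and neighbours such as Pkm and Gapdh, or Pgk1, Pgam1 and Aldoa, lay closer to each other than the groups of a single gene did. After LPS, Pkm averaged 765 ± 59.5 CPM per kb in KO and 877 ± 22.5 in WT, and Gapdh averaged 709 ± 31.004 in KO and 777 ± 30.1 in WT (SD, n = 4 each). Gapdh has 78 other annotated genes of at least 95% identity, Bnip3 5, and Pgk1 and Ldha 4 each, so their counts are uncertain where reads were shared.

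After LPS, KO macrophages held more mRNA of most hypoxia response genes and of some glycolysis genes than WT macrophages. The abundant enzymes of the pathway differed little. Of the 33 members tested, 17 were higher in KO and 3 lower, where 16.2% and 14.6% of all genes tested were. Among the 12 hypoxia genes 10 were higher and 2 (Ankrd37 and Ier3) were not called, with a median log2 fold change of 0.57. Among the 21 tested glycolysis genes 7 were higher and 3 lower, with a median of 0.03, against 0.01 over all genes tested. Of these 7, Pfkp, Slc16a1 and Pfkfb3 were called in every alternative run, whereas the calls of Slc2a1, Hk1, Hk3 and Pdk1 ended in some. In 10 members the 4 KO values lay above the 4 WT values and in 2 below them, where 8.04% and 4.83% of all genes did. Without the 3 shallow libraries 17 members were called higher and 1 lower, and without KO libraries 5 and 6 the counts were 15 and 3.

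**Figure D1:**
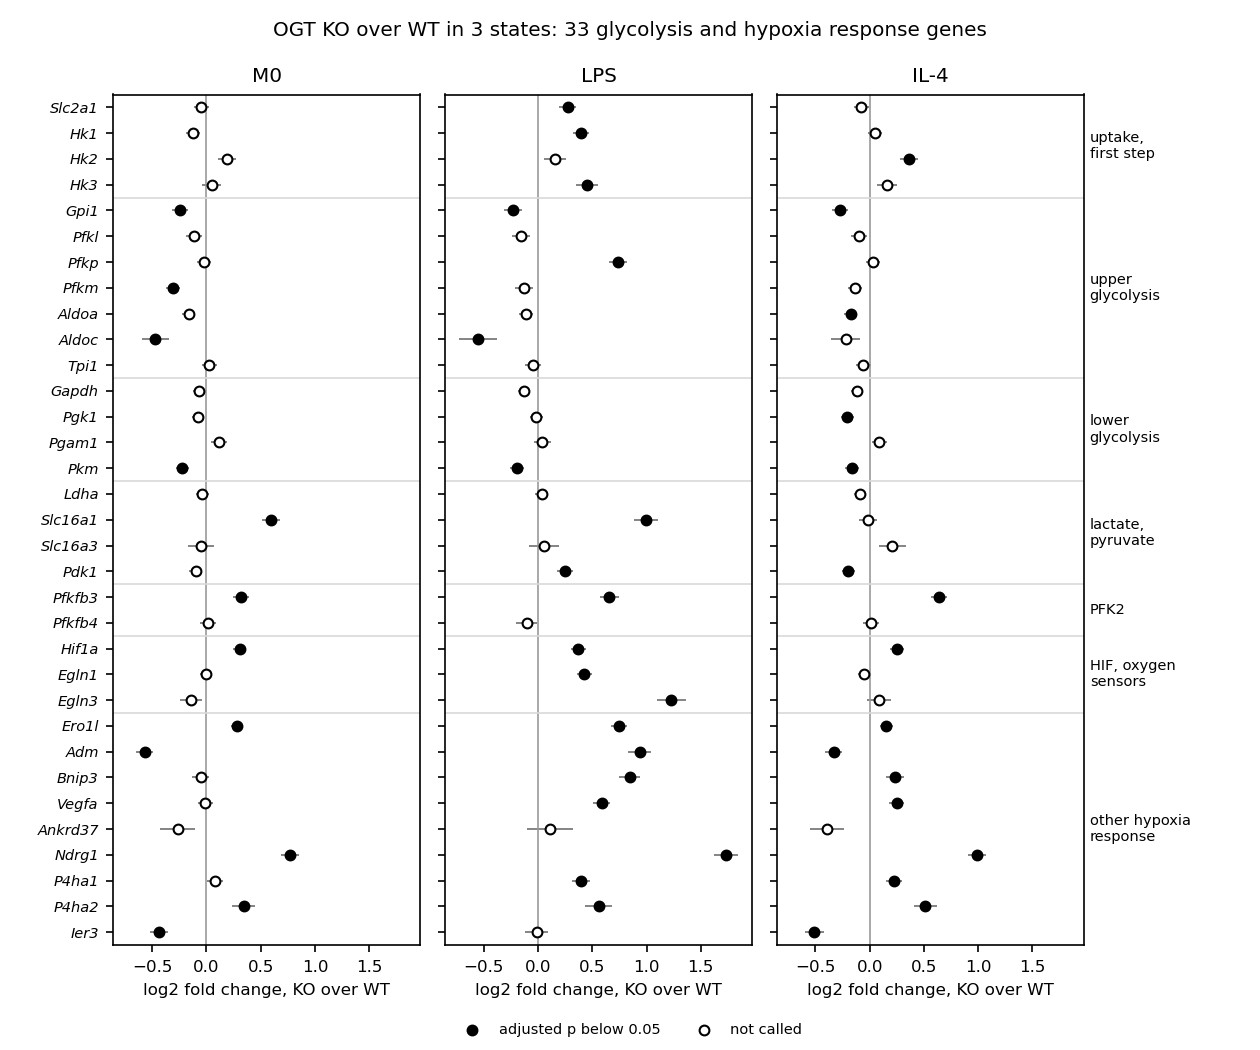
Log2 fold changes of OGT KO over WT for the 33 tested members, ordered by role, in M0, after LPS and with IL-4 (bars: SE of the edgeR fit over 24 libraries; filled points: adjusted p below 0.05). The LPS panel shows most hypoxia genes (bottom) to the right of 0, up to 1.73 for Ndrg1, with Ier3 and Ankrd37 near 0, while the enzymes of lower glycolysis lie near 0 in each panel.

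The largest difference was that of Ndrg1, a stress-responsive gene raised by hypoxia in many cell types. Its level was 52.04, 51.4, 41.9 and 39.9 CPM in KO LPS libraries and 10.3, 26.2, 14.6 and 13.9 CPM in WT LPS libraries. All KO values lay above all WT values, although the value of WT library 2 rests on 5 counts, and the log2 fold change was 1.73 ± 0.11 (SE, adjusted p = 3.44e-11), a 3.32-fold difference. Egln3 encodes an oxygen-sensing prolyl hydroxylase that HIF itself induces. Its level was 40.99, 37.1, 41.9 and 33.8 CPM in KO and 25.8, 15.7, 16.02 and 15.6 CPM in WT. The groups did not overlap, 3 of the 4 WT values lay close together near the bottom of the range, and KO was 2.34-fold higher (1.23 ± 0.13, 1.6e-07). Egln1, the hydroxylase that sets HIF1A stability in most cells, stood at 104, 106, 83.7 and 103 CPM in KO and 92.8, 41.8, 80.1 and 76.2 CPM in WT. The ranges overlapped through the shallow libraries, and the difference was smaller (0.43 ± 0.072, 6.82e-05). Hif1a mRNA stood at 392.2, 403, 317 and 423 CPM in KO and 268, 251, 321 and 321 CPM in WT, with the shallow KO library below the upper WT values (0.37 ± 0.073, 0.000353).

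Adm encodes adrenomedullin, a secreted vasodilator peptide. It had 44.6, 44.9, 65.8 and 35.01 CPM in KO LPS libraries and 15.5, 5.23, 21.03 and 23.2 CPM in WT LPS libraries, and every KO value lay above every WT value (0.94 ± 0.11, adjusted p = 3.97e-07). The shallow values rest on few counts, 11 in KO library 7 and 3 and 1 in WT libraries 1 and 2. Bnip3, a receptor for the removal of mitochondria, had 247, 257, 293 and 307 CPM in KO and 155, 152, 153 and 149.98 CPM in WT. The WT values were nearly equal, although those of the shallow libraries 1 and 2 rest on 30 and 29 counts. The lowest KO value was far above them all, with KO 1.79-fold higher (0.84 ± 0.099, 6.51e-07). Vegfa, the main growth factor for blood vessels, stood at 385, 369.5, 329 and 349 CPM in KO and 175, 225, 245 and 260.4 CPM in WT, again without overlap (0.59 ± 0.082, 6.66e-06). Ero1l, an oxidase for disulfide bonds in the endoplasmic reticulum, had 174, 185, 167 and 196 CPM in KO and 103, 152, 106 and 110.1 CPM in WT. Its groups did not overlap, with 1 shallow WT library standing above the other 3 (0.74 ± 0.071, 3.14e-08).

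P4ha1 and P4ha2 encode catalytic subunits of collagen prolyl hydroxylase, which cells that secrete collagen need. P4ha2 stood at 472, 456, 449 and 563 CPM in KO and 289, 293, 344 and 350.2 CPM in WT, without overlap (0.56 ± 0.12, adjusted p = 0.00114). P4ha1 had 586, 589.9, 598 and 624 CPM in KO and 397, 371, 494 and 474 CPM in WT, also apart (0.39 ± 0.083, 0.000707). The stromal marker sum given above was likewise higher in all 4 KO LPS libraries than in the 4 WT LPS libraries. The part of that sum in these differences was not tested. Of its 8 markers, 5 were called higher in KO after LPS (Col1a1, Col1a2, Col3a1, Lum and Pdgfra) and 0 lower. Pdgfrb (-0.11, adjusted p = 0.461), Thy1 (-0.44, 0.504) and Dcn (0.34, 0.235) were not called. Ier3, an early response gene, did not pass the test and stood at 70.7, 69.1, 53.8 and 64.2 CPM in KO and 51.6, 68.001, 67.2 and 70.5 CPM in WT (-0.011 ± 0.11, 0.956). Ankrd37 ranged over 3.71 to 5.98 CPM in KO and 0 to 5.16 CPM in WT and was not called (0.11 ± 0.21, 0.736).

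Among the glycolysis genes, Slc16a1 (MCT1), a plasma membrane carrier of lactate and pyruvate, had the largest difference. It stood at 39.1, 40.9, 17.9 and 37.6 CPM in KO and 25.8, 47.1, 18.3 and 19.8 CPM in WT. The groups overlapped only through shallow libraries, KO library 7 with 3 counts and WT libraries 1 and 2 with 5 and 9, and the deep libraries were apart (0.99 ± 0.11, adjusted p = 2.42e-07; without the shallow libraries 1.04, 8.47e-08). Pfkp, the platelet-type phosphofructokinase, had 137, 135, 179 and 156 CPM in KO and 41.3, 57.5, 90.5 and 89.2 CPM in WT. The groups did not overlap, and the 2 shallow WT libraries were lower than the 2 deep ones (0.74 ± 0.085, 4.54e-07). Its exons overlap those of Pitrm1 on the other strand, and the sources used here do not give the strand setting of the counting. The other phosphofructokinase genes, Pfkl and Pfkm, were not called (-0.16 ± 0.084, 0.156, and -0.13 ± 0.084, 0.257).

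Pfkfb3 makes the activator that pushes phosphofructokinase forward. It stood at 528, 552, 443 and 515 CPM in KO and 273, 309, 341 and 344 CPM in WT, with all KO values above all WT values (0.66 ± 0.086, adjusted p = 3.08e-06). Its relative Pfkfb4 was not called (-0.10 ± 0.095, 0.434). The hexokinase genes Hk1 and Hk3 and the glucose transporter gene Slc2a1 (GLUT1) were called higher in KO, with overlapping ranges. Hk1, whose exons overlap those of Hk1os, stood at 366, 354, 239 and 293 CPM in KO and 232, 262, 254 and 249 CPM in WT (0.40 ± 0.076, 0.000268). KO libraries 5 and 6 were high and KO library 7 was within the WT range, and without libraries 5 and 6 the difference was 0.19 (0.0501). In Hk3, KO libraries 5 and 6 were again the highest and the shallow KO library 7 was the lowest of all, at 998, 945, 574 and 759.9 CPM in KO and 588, 675, 621 and 622 CPM in WT (0.45 ± 0.10, 0.00136; without libraries 5 and 6 0.20, 0.0748). Slc2a1 had 303, 308, 263 and 287 CPM in KO and 232, 309, 246 and 235 CPM in WT (0.27 ± 0.082, 0.0131), and 1 shallow WT library reached the KO values. Hk2 was not called (0.16 ± 0.10, 0.254). Pdk1, the kinase that shuts off pyruvate dehydrogenase, was called higher (0.25 ± 0.076, 0.0144), with 76.9, 76.7, 59.8 and 77.4 CPM in KO and 25.8, 73.2, 65.7 and 65.5 CPM in WT. Its lowest value in each genotype came from a shallow library, and the deep KO libraries were above the deep WT libraries. The calls of Slc2a1 and Pdk1 ended without WT LPS library 4 (0.106 and 0.0528), and that of Slc2a1 also without WT LPS library 3 (0.0578). In a fit of only the compared groups neither was called (0.0962 and 0.148). Without KO libraries 5 and 6, Pdk1 (0.24, 0.0631) was not called, while Hk2 (0.32, 0.0175) and Pfkfb4 (-0.30, 0.0309) were.

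The 3 glycolysis genes called lower in KO after LPS were Aldoc, Gpi1 and Pkm. Aldoc, an aldolase best known from brain, stood at only 3.55, 3.23, 5.98 and 3.87 CPM in KO and 15.5, 0, 5.63 and 4.74 CPM in WT (-0.55 ± 0.18, adjusted p = 0.0181). Its highest and lowest values come from shallow libraries with 3 and 0 counts, and a count of 0 there allows up to 15.7 CPM. Pkm had 4164, 3948, 3468 and 3730.3 CPM in KO and 4239, 4415, 4511 and 4383 CPM in WT, without overlap but close (-0.19 ± 0.064, 0.0229). Gpi1 ranged over 550.2 to 781 CPM in KO and 748 to 892 CPM in WT, with overlap (-0.23 ± 0.081, 0.0314). Without the shallow libraries Gpi1 and Pkm were no longer called (0.0785 and 0.0645). Leaving out any 1 of WT LPS libraries 3 and 4 and KO LPS libraries 7 and 8 also ended both calls. So did leaving out KO libraries 7 and 8 together (Gpi1 -0.11, 0.169, and Pkm -0.12, 0.203). The call of Aldoc ended without WT LPS library 3 (-0.44, 0.171), KO LPS library 6 (-0.49, 0.0665) or KO libraries 5 and 6 together (-0.42, 0.0889), and DESeq2 did not call it (0.113). Gapdh, Pgk1, Pgam1, Tpi1, Aldoa, Ldha and the lactate exporter gene Slc16a3 (MCT4) were not called, and their log2 fold changes lay between -0.13 (Gapdh) and 0.053 (Slc16a3).

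**Figure D2:**
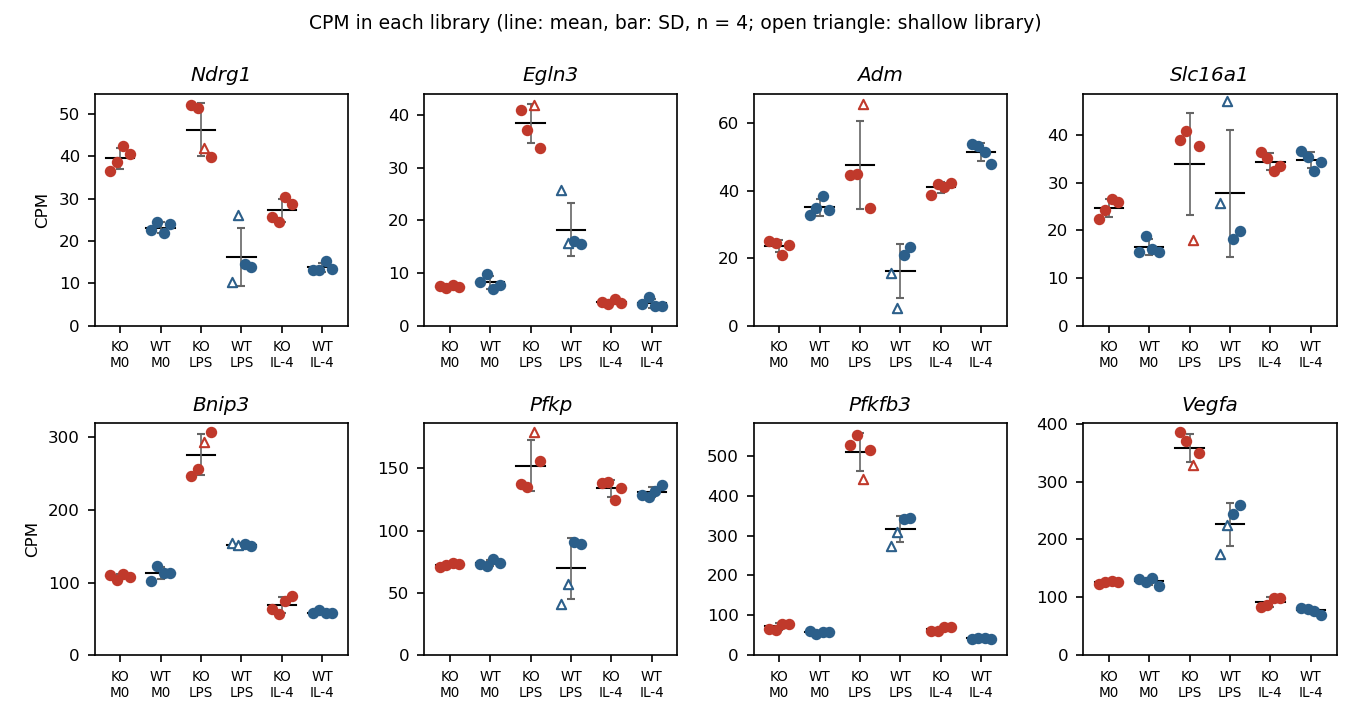
CPM of 8 members in each of the 24 libraries, KO left of WT within each state (line: mean; bar: SD, n = 4; open triangles: shallow libraries). In all 8 panels the deep KO LPS libraries stand above the deep WT LPS libraries, while in M0 Egln3, Bnip3, Pfkp and Vegfa overlap between genotypes and Adm is lower in KO.

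With IL-4 the members differed between genotypes in both directions, and none by as much as 1 on the log2 scale. Of 33 members 9 were higher in KO and 7 lower, where 17.9% and 18.2% of all genes tested were. The median was -0.01 over the members and 0.01 over all genes. In 10 members the KO values lay above all WT values and in 8 below, where 17.3% and 19.8% of all genes did. Of the 12 hypoxia genes 7 were higher and 2 lower, and of the 21 glycolysis genes 2 were higher and 5 lower. Ndrg1 stood at 25.6, 24.5, 30.3 and 28.7 CPM in KO and 13.03, 13.2, 15.3 and 13.5 CPM in WT, with the lowest KO value well above the highest WT value (0.99 ± 0.083, adjusted p = 4.99e-09). Pfkfb3 had 60.2, 61.4, 70.7 and 70.9 CPM in KO and 41.4, 43.1, 44.2 and 40.2 CPM in WT, again apart (0.64 ± 0.075, 7.09e-07). P4ha2 had 121, 117, 166 and 172 CPM in KO and 99.8, 109, 96.9 and 97.8 CPM in WT. Its groups did not overlap, KO libraries 7 and 8 were the highest (0.51 ± 0.11, 0.000573), and without them the difference was 0.24 (0.00544).

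Ier3 was the member most reduced with IL-4. It stood at 50.4, 49.2, 42.6 and 43.7 CPM in KO and 66.6, 71.7, 62.4 and 63.8 CPM in WT, with every KO value below every WT value (-0.51 ± 0.084, adjusted p = 5.02e-05). Adm was also lower, at 38.8, 41.9, 41.1 and 42.2 CPM in KO and 53.7, 53.2, 51.4 and 47.9 CPM in WT, without overlap (-0.33 ± 0.080, 0.00215). Among the glycolysis enzymes Gpi1, Pgk1, Aldoa, Pkm and Pdk1 were lower by 0.16 to 0.28 on the log2 scale. Of these, Gpi1 had the largest difference (-0.28 ± 0.074, 0.0048). Hk2, the inducible hexokinase, was higher in KO at 82.4, 84.2, 95.7 and 104 CPM, against 76.2, 65.99, 73.1 and 69.7 CPM in WT, with no overlap (0.36 ± 0.084, 0.00151). The other higher members were Hif1a (0.25 ± 0.063, 0.00288), Ero1l, Bnip3, Vegfa and P4ha1. Without KO libraries 7 and 8 the calls of Ero1l, Bnip3, Vegfa and P4ha1 ended (adjusted p = 0.147, 0.655, 0.139 and 0.348), with Bnip3 at 0.040 and P4ha1 at 0.074. Without KO library 8 alone Bnip3 was at 0.14 (0.153), and its call also ended without KO library 7 or WT library 1, 3 or 4. In a fit of only the compared groups Bnip3 was not called (0.0673). The call of Pkm ended without any 1 of 7 libraries (all but WT library 3) and that of Aldoa without any 1 of 5 (WT 1 and 2, KO 5, 6 and 7). The call of Ero1l ended without any 1 of 6 libraries (WT 1, 2 and 3, KO 5, 7 and 8). DESeq2 did not call Adm (-0.32, 0.1) or Ero1l (0.17, 0.0872). Without KO libraries 5 and 6 the calls of Aldoa (0.113), Pgk1 (0.0519), Pkm (0.105) and Pdk1 (0.0803) ended, and Aldoc (-0.47, 0.00489) and Slc16a3 were called. Without KO libraries 7 and 8 the call of Pkm ended (0.0668), and Slc2a1 (-0.20, 0.00823), Hk3 (0.23, 0.00213), Pfkm (-0.21, 0.0213) and Ankrd37 (-0.73, 0.000792) were called.

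In unstimulated cells 12 members differed between genotypes, in equal numbers each way. Of 33 members 6 were higher in KO and 6 lower, where 11.8% and 10.5% of all genes tested were, and the medians were -0.05 over the members and 0.02 over all genes. The KO values lay above all WT values in 6 members and below in 8, where 13.5% and 13.6% of all genes did. Ndrg1 stood at 36.5, 38.6, 42.3 and 40.4 CPM in KO and 22.5, 24.5, 21.8 and 23.9 CPM in WT, far apart (0.77 ± 0.081, adjusted p = 2.39e-07). Slc16a1 had 22.3, 24.3, 26.5 and 26.003 CPM in KO and 15.4, 18.9, 16.1 and 15.4 CPM in WT, without overlap (0.59 ± 0.083, 1.17e-05). Hif1a stood at 232, 231, 251 and 248 CPM in KO and 202, 189, 182 and 206 CPM in WT, with all KO values higher (0.31 ± 0.062, 0.000925). The other members called higher were Pfkfb3 (0.32 ± 0.075; without KO libraries 7 and 8 0.17, 0.04), Ero1l (0.28 ± 0.057) and P4ha2 (0.34 ± 0.11; without KO libraries 7 and 8 0.17, 0.0527).

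Adm was the most reduced member in M0. It stood at 25.1, 24.4, 21.03 and 23.9 CPM in KO and 32.7, 34.8, 38.5 and 34.2 CPM in WT, and every KO value was below every WT value (-0.57 ± 0.081, adjusted p = 1.4e-05). Ier3 was lower as well, at 24.7, 22.3, 28.7 and 30.1 CPM in KO and 39.1, 39.8, 32.1 and 32.5 CPM in WT, without overlap (-0.44 ± 0.085, 0.000541; without KO libraries 5 and 6 -0.28, 0.00888). The 4 glycolysis enzymes called lower were Aldoc (-0.47 ± 0.13, 0.00786; without KO libraries 7 and 8 -0.31), Pfkm (-0.31 ± 0.065, 0.00111), Gpi1 (-0.24 ± 0.074, 0.0205) and Pkm (-0.22 ± 0.062, 0.0114). Aldoc, at 10.7, 9.80, 7.69 and 8.29 CPM in KO and 13.1, 12.7, 13.3 and 11.6 CPM in WT, did not overlap between genotypes. The call of Gpi1 ended without WT library 2 or 3 or KO library 7 or 8 (adjusted p up to 0.085), that of P4ha2 without WT library 1 or KO library 7 or 8 (up to 0.0851), and DESeq2 did not call Pfkm (0.0861) or Aldoc (0.103). Without KO libraries 5 and 6, Hk1 (-0.18, 0.0172), Hk2 (0.28, 0.00532) and P4ha1 (0.17, 0.0494) were called as well.

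Read across the 3 states, 5 members were called higher in KO in each (Ndrg1, Pfkfb3, Hif1a, Ero1l and P4ha2) and 2 lower in each (Gpi1 and Pkm), where 4.06% and 4.28% of all genes tested were. Called after LPS and in neither other state were 6 members (Egln1, Egln3, Hk1, Hk3, Pfkp and Slc2a1), where 12.4% of all genes were. Called in no state, as were 45.1% of all genes, were 8 members: Ankrd37, Gapdh, Ldha, Pfkfb4, Pfkl, Pgam1, Slc16a3 and Tpi1. Adm and Pdk1 were called in opposite directions in different states, as were 1.89% of all genes. Whether a difference depended on the state was tested with the interaction, which is the response in KO minus that in WT.

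LPS raised most of the 33 members in both genotypes. In KO 29 were higher after LPS than in M0 and 1 lower, where 31.2% and 36.0% of all genes tested were. In WT 25 were higher and 4 lower, where 29.4% and 28.3% were. The median response of the members was 0.82 in KO and 0.66 in WT, against -0.07 and -0.01 over all genes. In KO 23 members had every LPS value above every M0 value and 1 had every value below, where 19.2% and 28.5% of all genes did, and in WT 24 and 2 did, where 15.4% and 23.5% of all genes did. With scaling factors computed from the LPS and M0 libraries of KO alone, the median of all genes in KO moved by -0.17 and that of the members to 0.66. Pfkfb3 had the strongest response, with 509 ± 47.1 CPM after LPS and 72.3 ± 8.18 CPM in M0 in KO (2.85 ± 0.081, adjusted p = 8.12e-21). In WT it stood at 317 ± 32.96 CPM after LPS and 57.98 ± 3.08 CPM in M0 (2.51 ± 0.084, 4.22e-19). No LPS value came near an M0 value in either genotype.

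Hk3, the hexokinase of blood cells, followed. It had 177, 177, 145 and 160.4 CPM in KO M0 libraries and 159, 169, 162 and 149.5 CPM in WT M0 libraries, all far below the LPS values given above (2.37 ± 0.097 in KO, adjusted p = 1.9e-17, and 1.96 ± 0.10 in WT, 3.3e-15). Slc2a1 rose without overlap in both genotypes, to 290.2 ± 20.3 CPM in KO, against 116 ± 9.36 CPM in M0, and to 255 ± 36.03 CPM in WT, against 120.0 ± 4.26 CPM in M0 (1.35 ± 0.072 and 1.03 ± 0.078). Hk2 had 155, 152, 119.6 and 190.3 CPM after LPS and 71.8, 70.1, 81.3 and 80.2 CPM in M0 in KO, and rose by 1.11 ± 0.089 in KO and 1.14 ± 0.096 in WT. In both genotypes every LPS value of Hk2 was above every M0 value. Slc16a3 stood at 479.9, 451, 341 and 499 CPM after LPS and 193, 208, 242 and 250.2 CPM in M0 in KO, with every LPS value the higher (1.05 ± 0.13). In WT it stood at 376, 481, 461 and 443 CPM after LPS and 217, 250.1, 244 and 213 CPM in M0, also apart (0.95 ± 0.14). Of the abundant enzymes, Pgk1 rose by 0.98 ± 0.059 in KO and 0.91 ± 0.060 in WT, Pkm by 0.86 ± 0.063 and 0.83 ± 0.064, Ldha by 0.72 ± 0.059 and 0.65 ± 0.060, and Gapdh by 0.59 ± 0.054 and 0.65 ± 0.055. Aldoc was lower after LPS in both (-1.36 ± 0.15 in KO and -1.28 ± 0.17 in WT), and Pfkm fell in WT (-0.29 ± 0.080, 0.00285) and was not called in KO (-0.11 ± 0.071, 0.177). Without KO libraries 5 and 6 the KO call of Pgam1 ended (0.18, 0.117) and Ankrd37 was called (0.56, 0.0429).

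The LPS response itself differed between the genotypes in 11 members, each with the higher response in KO, where 6.62% of all genes tested were called higher. None was lower by edgeR or DESeq2 (4.79% of all genes were lower by edgeR), and at an unadjusted p under 0.05 there were 16 higher and 0 lower. Of the 12 hypoxia genes 8 were called, with a median of 0.45, and of the 21 glycolysis genes 3, with a median of 0.06, against -0.02 over all genes tested. The difference was largest for Adm, whose direction changed: LPS raised it in KO (0.82 ± 0.087, adjusted p = 4.55e-09) and lowered it in WT (-0.69 ± 0.10, 1.96e-06), an interaction of 1.51 ± 0.13 (7.26e-08). Each KO LPS value was above each KO M0 value, and each WT LPS value was below each WT M0 value. The Adm values of WT LPS libraries 1 and 2 rest on 3 and 1 counts. Egln3 rose in both, to 38.4 ± 3.72 CPM in KO against 7.44 ± 0.221 CPM in M0, and to 18.3 ± 5.01 CPM in WT against 8.22 ± 1.21 CPM in M0. Its response was 2.33 in KO and 0.96 in WT (interaction 1.37 ± 0.17, 8.35e-06). For Ndrg1 the KO response was 0.27 ± 0.086 (0.00707) and the WT response -0.69 ± 0.10 (2.82e-06), with an interaction of 0.96 ± 0.14 (4.58e-05). The KO response of Ndrg1 rests on libraries 5 and 6: Ndrg1 in these had 52.04 and 51.4 CPM after LPS and 36.5 and 38.6 CPM in M0. Without them the KO response was -0.049 (0.705), while the interaction was 0.64 (0.00163). With all libraries, DESeq2 did not call the KO response of Ndrg1 (0.18, 0.184). Neither did edgeR with DESeq2 size factors (0.19, 0.0574) or with only the compared groups (0.11, 0.304).

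Bnip3 responded by 1.32 in KO and 0.43 in WT (interaction 0.90 ± 0.13, adjusted p = 5.2e-05). Pfkp had a response of 0.99 in KO and a fitted response of 0.23 in WT (0.76 ± 0.11, 5.01e-05). The WT response was not called by DESeq2 (0.11, 0.517), with DESeq2 size factors (0.13, 0.146) or without WT LPS library 3 (0.17, 0.172) or 4 (0.19, 0.132), and the plain WT means were 69.6 ± 24.3 CPM after LPS and 73.98 ± 2.14 CPM in M0. Vegfa responded by 1.53 in KO and 0.93 in WT (0.60 ± 0.11, 0.000524). In M0 the KO and WT values of these 3 genes overlapped, with Vegfa for example at 124, 127, 129 and 126 CPM in KO and 131, 127, 133 and 119.6 CPM in WT. Hk1 (0.52 ± 0.099, 0.000944), Ero1l (0.47 ± 0.090, 0.00126) and Egln1 (0.43 ± 0.092, 0.00254) also responded more in KO. Pdk1 (0.35 ± 0.096, 0.0192) and Ier3 (0.43 ± 0.14, 0.0404) were closest to the threshold, and Pdk1 lost its call without WT LPS library 3 (0.0538) or 4 (0.0539). Ier3 stood at 64.5 ± 7.62 CPM after LPS in KO, against 26.4 ± 3.61 CPM in M0, and without KO libraries 5 and 6 its interaction was 0.18 (0.41). Its call also ended without any 1 of 8 single libraries (KO 5 and 6 of either state, WT M0 1 and 2, WT LPS 3 and 4). Without KO libraries 7 and 8, 17 members were called, with Slc2a1, Hk3, Slc16a1, Pfkfb3, P4ha1 and P4ha2 added (adjusted p from 0.000114 to 0.0419). Without the shallow libraries Ier3 was not called (0.0579), and Slc2a1, Hk3 and Slc16a1 were. P4ha1 rose by 1.08 ± 0.076 in KO and 0.76 ± 0.080 in WT, and its interaction did not pass the test (0.32 ± 0.11, 0.0607). With the label number as a block, the interactions of P4ha1 (0.33, 0.00811), Slc2a1 (0.34, 0.0077), Hk3 (0.38, 0.00444), Slc16a1 (0.36, 0.0347) and Pfkfb3 (0.37, 0.00848) were called and that of Ier3 was not (0.33, 0.0604).

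**Figure D3:**
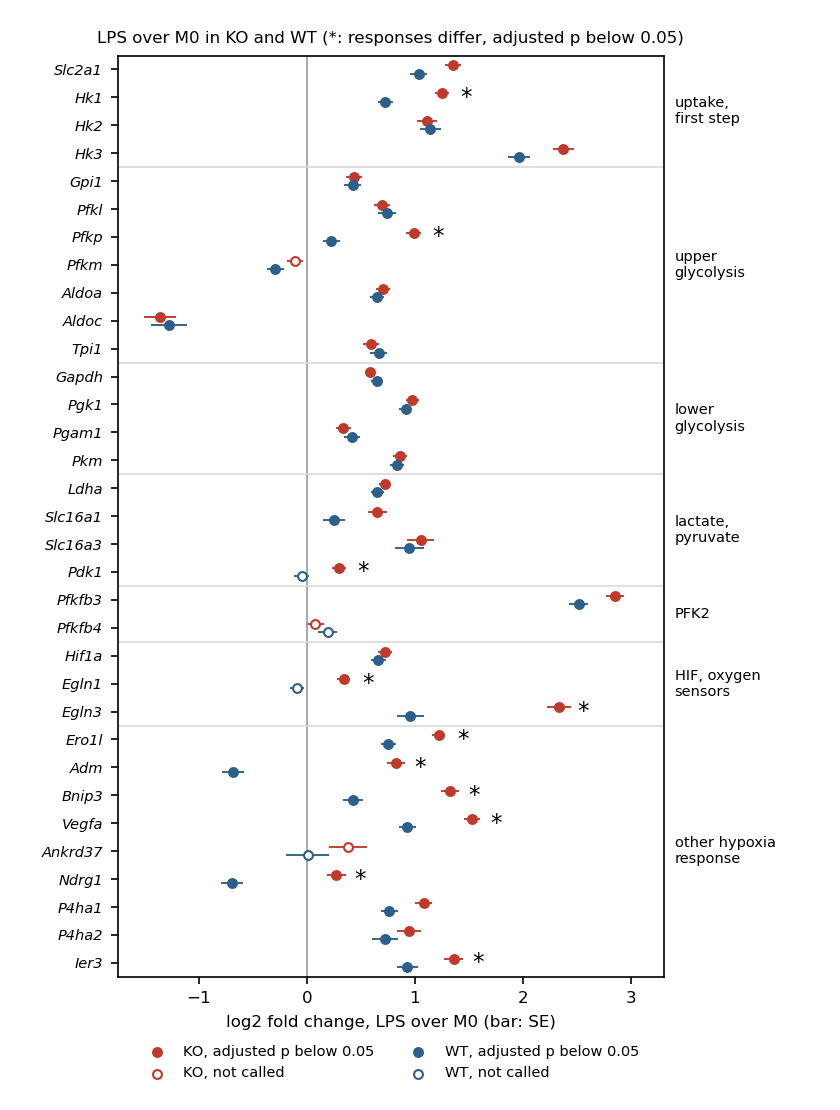
Log2 fold changes of LPS over M0 in KO (red) and WT (blue) for the 33 tested members (bars: SE; filled points: adjusted p below 0.05; asterisks: interaction called). Most enzymes of glycolysis show the same response in both genotypes, whereas Egln3 (2.33 in KO, 0.96 in WT) and Adm (0.82 in KO, -0.69 in WT) are far apart.

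With IL-4 the members split. In KO 9 were higher than in M0 and 14 lower, where 26.0% and 25.2% of all genes tested were, and in WT 9 were higher and 14 lower, where 30.9% and 29.3% were. Every IL-4 value lay above every M0 value in 11 members and below in 14 in KO, where 25.2% and 21.6% of all genes did, and in 8 and 15 in WT, where 29.8% and 27.7% did. Pfkfb4, the second activator-making enzyme of the list, had the largest rise. It stood at 69.7, 70.6, 64.8 and 63.3 CPM with IL-4 and 33.6, 31.97, 29.4 and 29.2 CPM in M0 in KO, all IL-4 values being the higher (1.11 ± 0.074, adjusted p = 2.66e-12). In WT it had 68.9, 69.5, 65.7 and 61.9 CPM with IL-4 and 31.1, 29.9, 31.7 and 30.3 CPM in M0, with the same separation (1.11 ± 0.074, 1.95e-12). Pfkp rose by 0.88 ± 0.068 in KO and 0.83 ± 0.068 in WT, Hk3 by 0.67 ± 0.091 and 0.56 ± 0.091, Ier3 by 0.81 ± 0.085 and 0.88 ± 0.085, and Adm by 0.79 ± 0.081 and 0.56 ± 0.080. Each of these 4 genes had all IL-4 values above all M0 values in both genotypes.

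Slc16a1 was the member whose IL-4 response differed between genotypes. It stood at 36.5, 35.1, 32.4 and 33.5 CPM with IL-4 and 22.3, 24.3, 26.5 and 26.003 CPM in M0 in KO, and at 36.7, 35.3, 32.6 and 34.4 CPM with IL-4 and 15.4, 18.9, 16.1 and 15.4 CPM in M0 in WT. The levels with IL-4 were nearly the same in KO and WT, and the M0 level was higher in KO. The response was 0.47 in KO and 1.08 in WT, an interaction of -0.61 ± 0.12 (adjusted p = 0.0081). The call ended without KO libraries 7 and 8 (-0.46, 0.0731), where Pfkfb3 was called (0.35, 0.047), and without KO libraries 5 and 6 Bnip3 (0.44, 0.00439) and Vegfa (0.36, 0.0369) were called. No other member was called by edgeR (0 higher and 1 lower, where 0.47% and 0.667% of all genes were), DESeq2 called none, and at an unadjusted p under 0.05 there were 4 higher and 1 lower. With the number as a block, Pfkfb3 (0.32, 0.0248) and Bnip3 (0.27, 0.0339) were called as well.

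**Figure D4:**
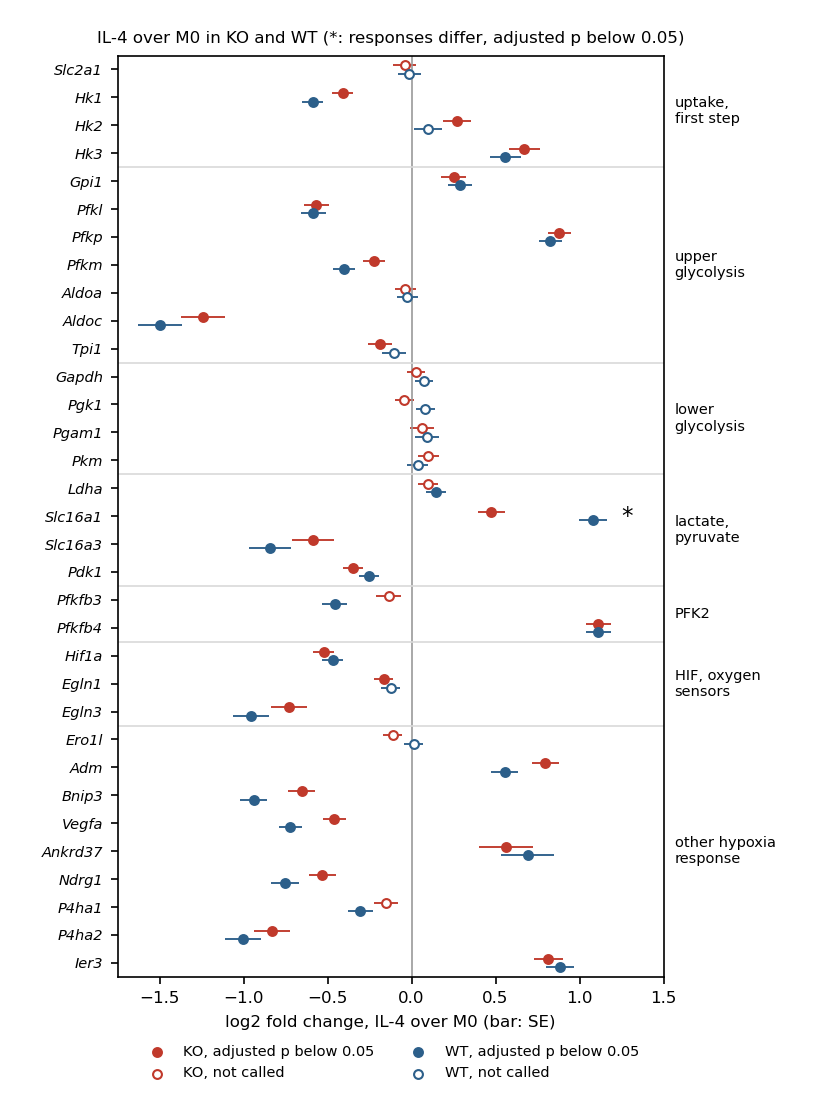
Log2 fold changes of IL-4 over M0 in KO (red) and WT (blue) for the 33 tested members (bars: SE; filled points: adjusted p below 0.05; asterisk: interaction called). The 2 genotypes lie close together for most members, Slc16a1 (0.47 in KO, 1.08 in WT) being the exception with a called interaction.

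The members lowered by IL-4 included most hypoxia genes and several enzymes. Aldoc stood at 4.69, 4.24, 3.05 and 3.46 CPM with IL-4 in KO and 5.02, 4.68, 3.78 and 4.52 CPM with IL-4 in WT, below every M0 value of its genotype (-1.24 ± 0.13 in KO and -1.50 ± 0.13 in WT). P4ha2 responded by -0.83 ± 0.11 in KO and -1.002 ± 0.11 in WT, beside a stromal marker sum that was also lower with IL-4 than in M0 in both genotypes. Egln3 fell to 4.48 ± 0.372 CPM in KO, against 7.44 ± 0.221 CPM in M0, and to 4.24 ± 0.799 CPM in WT, against 8.22 ± 1.21 CPM in M0. Bnip3 (-0.65 ± 0.081 in KO and -0.94 ± 0.081 in WT), Ndrg1 (-0.53 ± 0.081 and -0.75 ± 0.083), Vegfa (-0.46 ± 0.069 and -0.72 ± 0.069), Hif1a (-0.52 ± 0.063 and -0.47 ± 0.063) and Slc16a3 (-0.59 ± 0.12 and -0.85 ± 0.12) were lower in both. Pfkfb3 fell in WT (-0.46 ± 0.075, adjusted p = 9.78e-06) and was not called in KO (-0.14 ± 0.074, 0.132), and that difference did not pass the test (0.32 ± 0.11, 0.138). Gapdh, Pgk1, Pgam1, Pkm, Aldoa, Slc2a1 and Ero1l were not called in either genotype. In KO the calls of Pfkm (0.167), Tpi1 (0.078) and Egln1 (0.102) ended without libraries 5 and 6. Without libraries 7 and 8 those of Tpi1 (0.0599) and Ankrd37 (0.344) ended and P4ha1 was called (-0.21, 0.0123).

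With IL-4, many members were separated by label number, in KO and in WT. Of the 33 members in KO with IL-4, 18 were higher in both libraries 7 and 8 than in both libraries 5 and 6, and 7 were lower (75.8% separated), against 53.2% of all genes tested. In the WT IL-4 libraries 22 of 33 (66.7%) were separated between numbers 1 and 2 and numbers 3 and 4, against 43.9% of all genes. In WT 5 members were higher in both libraries 3 and 4, among them Hif1a and Ndrg1. Lower there were 17, among them Bnip3, Vegfa, P4ha2 and Slc16a3. Slc16a3 stood at 111, 122, 176 and 185 CPM in KO and 127, 147, 124 and 116 CPM in WT with IL-4. KO libraries 5 and 6 lay below or within the WT range and KO libraries 7 and 8 above it, and the genotypes were not called different (0.21 ± 0.12, adjusted p = 0.195), except without KO libraries 5 and 6 (0.49, 7.73e-05). Bnip3 stood at 63.6, 57.2, 74.2 and 81.6 CPM in KO and 57.9, 62.03, 57.5 and 57.7 CPM in WT. KO libraries 7 and 8 were again the highest, KO library 5 lay just above the WT range and KO library 6 just below it. The stromal marker sum in these KO libraries was 10500, 10410, 13761 and 12086 CPM, also higher in libraries 7 and 8. Endothelial markers summed to 19.5, 20.2, 44.5 and 43.7 CPM in the same libraries. The sources used here do not say what the numbers stand for, and the part of these markers in the members' values was not tested.

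**Figure D5:**
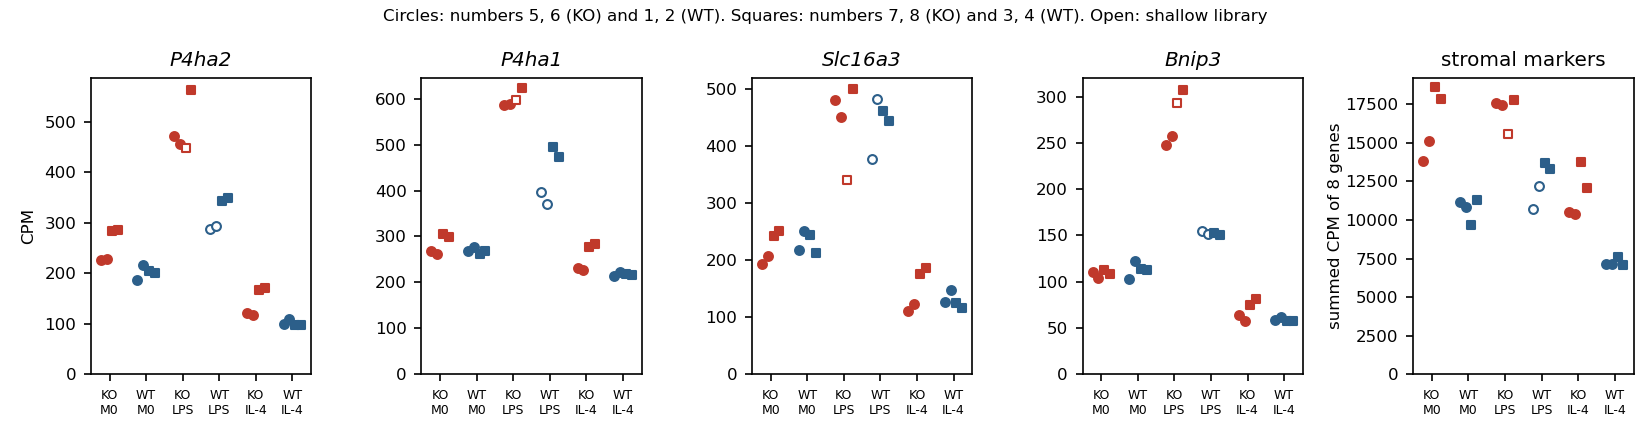
CPM of P4ha2, P4ha1, Slc16a3 and Bnip3, and the summed CPM of 8 stromal marker genes, in each library, KO left of WT within each state (circles: KO numbers 5 and 6, WT numbers 1 and 2; squares: KO numbers 7 and 8, WT numbers 3 and 4; open: shallow). In KO with IL-4 the squares stand above the circles in all 5 panels.

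Other genes of the same pathways, from lists chosen with results of these data known, give the setting. Of 37 other hypoxia genes 22 were higher in KO after LPS and 1 lower, against 16.2% and 14.6% of all genes tested, with a median of 0.36. In M0 2 were higher and 3 lower, against 11.8% and 10.5% of all genes, and with IL-4 10 were higher and 3 lower, against 17.9% and 18.2%. Their LPS response was larger in KO in 11, against 6.62% of all genes. Plod2, a lysyl hydroxylase for collagen, was among the 22, with 235 ± 68.8 CPM in KO and 130.4 ± 13.05 CPM in WT after LPS (0.73 ± 0.17, adjusted p = 0.00185). So was Higd1a, a mitochondrial membrane protein induced by hypoxia, with 158 ± 31.98 CPM in KO and 95.8 ± 29.3 CPM in WT (0.66 ± 0.14, 0.00103). Of 25 other genes of glucose metabolism tested 5 were higher and 6 lower after LPS, 1 and 3 in M0, and 3 and 4 with IL-4, against the same shares of all genes. Mpc1, a subunit of the mitochondrial pyruvate carrier, was higher in KO in each state, with 41.9 ± 2.71 CPM in KO and 28.1 ± 3.14 CPM in WT in M0 (0.58 ± 0.070, 1.73e-06). Pdk4, another pyruvate dehydrogenase kinase, was lower in M0 and averaged 44.01 ± 6.05 CPM in KO and 66.4 ± 2.52 CPM in WT (-0.59 ± 0.11, 0.000312).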

How the data were processed

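RNA sequencing of total RNA (RNeasy Plus) from 24 libraries was analysed. The deposited files hold whole-number read counts for each gene symbol. Per the submitters' processing notes, the authors aligned reads with TopHat2 2.1.0 to mm10 (GRCm38) and made the counts with HTSeq 0.9.1. The sources used here do not name the annotation, library kit or strand setting. The 5 summary lines of each file, 8.76% to 9.98% of its total, were left out.

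Tests were run with edgeR 4.0.16 under R 4.3.3 (normalization by TMM, filterByExpr by group, 14693 genes kept, quasi-likelihood test, Benjamini-Hochberg adjustment) in 1 fit of 24 libraries, with a mean for each group (18 residual degrees of freedom). CPM use effective library sizes, and CPM per kb the exon union of GENCODE M21. DESeq2 1.42.0 was an alternative. The procedure was tested on simulated data. No 2 libraries agreed within counting noise. Between KO libraries of equal label number in different states, the correlations of deviations were 0.313 to 0.664 over 8987 genes. Correlations between libraries of unequal number were not computed. These values therefore cannot tell pairing by single number from the split between the KO pairs described above. In a fit with the number as a block, LPS against M0 in KO called Ankrd37 as well (0.36, adjusted p = 0.0215) and IL-4 against M0 in KO called P4ha1 (-0.16, 0.0149). Members, lists and roles were chosen with earlier results of these data known. Values of each library are given for members called between genotypes or in an interaction with a log2 difference of at least 0.5 and at least 5 CPM, or in a stimulation with at least 1, and for some others chosen after their values were seen.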

Additional observations from a re-analysis of the deposited data

Results flagged for a closer look

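In 10 of 198 sets of 4 libraries (5.05%, where chance gives about 1 in 20), 1 library stood far from the other 3. In 8 sets it was a shallow library with few counts: KO LPS library 7 for Pfkm (5.98 CPM, 1 count), Slc16a1 (17.9 CPM, 3 counts), Pdk1 (59.8 CPM, 10 counts) and Egln1 (83.7 CPM, 14 counts), WT LPS library 1 for Hk2 (92.8 CPM, 18 counts), Pdk1 (25.8 CPM, 5 counts) and Egln3 (25.8 CPM, 5 counts), and WT LPS library 2 for Ero1l (152 CPM, 29 counts). In the other 2 sets it was WT IL-4 library 2, for Pgk1 (911 CPM) and Bnip3 (62.03 CPM).

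The response to LPS differed between KO and WT in the interaction test for Adm (1.51), Egln3 (1.37), Ndrg1 (0.96), Bnip3 (0.90), Pfkp (0.76), Vegfa (0.60), Hk1 (0.52), Ero1l (0.47), Egln1 (0.43), Ier3 (0.43) and Pdk1 (0.35), all larger in KO on the log2 scale. The response to IL-4 differed for Slc16a1 (-0.61).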

How the results depend on the processing

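Of the 17 members called higher in KO after LPS, 13 were called in every alternative run, and of the 11 with a larger LPS response in KO, 9 were. The 3 members lower in KO after LPS became 1 without the shallow libraries, without KO libraries 7 and 8 or with KO libraries summed as 5+6 and 7+8 (an alternative chosen after seeing the data), and 0 to 3 when single libraries were left out. The 7 lower with IL-4 became 4 without KO libraries 5 and 6 and 3 with summed libraries. The 1 member lowered by LPS in KO became 2 with DESeq2 size factors or with only the compared groups. The LPS interaction called 17 members without KO libraries 7 and 8. The IL-4 interaction called 2 members higher without KO libraries 5 and 6, 1 without 7 and 8 and 2 with the replicate block, and 0 lower without 7 and 8, with summed libraries or with DESeq2. The LPS response of Ndrg1 in KO turned to -0.049 without KO libraries 5 and 6. For Ogt itself, LPS against M0 in WT (0.19) was 0.089 with DESeq2 size factors, 0.10 with DESeq2 and 0.14 with the replicate block, and 0.16 to 0.22 leaving out single libraries. IL-4 against M0 in WT (0.13) was 0.068 with DESeq2 size factors and with DESeq2, 0.13 without the filter, 0.12 with only the compared groups and 0.10 to 0.18 leaving out single libraries, and IL-4 against M0 in KO was -0.15 with DESeq2 size factors. The causes were not tested. In WT the correlations between equal numbers of different states were mixed (-0.146 to 0.655). There the replicate block also called Pfkfb4 after LPS (0.21, adjusted p = 0.00941) and Egln1 with IL-4 (-0.12, 0.0317). Beside these, Ogt and the calls given with their results, the block changed no member's call. Among member counts, 302 of 320 values stayed within 1.5 times of the reported one. Depth limits LPS values below about 18 CPM in the shallow libraries.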

Other observations

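Slc2a6, a lysosomal transporter of the GLUT family outside the 34 genes, responded to LPS more strongly than any of them. It averaged 365 ± 152 CPM after LPS and 7.65 ± 0.882 CPM in M0 in KO (5.71 ± 0.19, adjusted p = 2.84e-19). In WT it averaged 316 ± 34.7 CPM after LPS and 8.02 ± 0.700 CPM in M0 (5.33 ± 0.20, 2.6e-18). Hmox1, the heme-degrading enzyme, averaged 2272 ± 451 CPM after LPS and 256 ± 30.1 CPM in M0 in KO, and 1485 ± 5.02 CPM after LPS and 348 ± 13.5 CPM in M0 in WT. Its response was larger in KO (interaction 1.08 ± 0.13, 9.37e-06), and its M0 level was lower in KO (-0.44 ± 0.090, 0.000971).

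With IL-4, Tfrc, the transferrin receptor that brings iron into cells, averaged 432 ± 45.002 CPM against 84.97 ± 1.61 CPM in M0 in KO (2.35 ± 0.073, adjusted p = 4.96e-19). In WT it averaged 503 ± 6.36 CPM with IL-4 and 84.3 ± 3.92 CPM in M0 (2.58 ± 0.074, 6.76e-20). Bhlhe40, a transcriptional repressor induced by hypoxia, responded by 1.10 ± 0.082 in KO and 1.66 ± 0.083 in WT, with an interaction of -0.56 ± 0.11 (0.015).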
